A study of Rattus norvegicus with 12 samples.

Results

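The 68 genes described here are those of superoxide dismutases, catalase, glutathione peroxidases, peroxiredoxins, the thioredoxin family, glutaredoxins, glutathione S-transferases (GSTs) and glutathione synthesis, with the regulators Nfe2l2 and Keap1 and the inducible enzymes Nqo1 and Hmox1. They were chosen by gene symbol alone, with no measured value in the rule, although earlier results of these data were known when the symbols were picked, and are 68 of 14217 genes, measured by 80 of 31042 probe sets. A few of them are not antioxidant enzymes, since the symbols also took in the splicing factors Txnl4a and Txnl4b, which share only the thioredoxin fold. Total RNA from long bone of female Sprague-Dawley rats was hybridized to Affymetrix rat genome arrays, which the study used to ask which bone genes respond to ovariectomy and to a blueberry (BB) diet. LTBB OVX rats ate a diet with 10% BB from postnatal day (PND) 20 until sacrifice, and STBB OVX rats ate it from PND 20 to PND 34 and the casein control diet thereafter. OVX rats and sham-operated (sham) rats ate the control diet throughout. Surgery was done on PND 60, an ovariectomy in the first 3 groups and a sham operation in the last, and all rats were sacrificed on PND 81. There were 3 arrays per group, each a pool of RNA from 2 to 3 rats, so that p-values measure the spread between pools. Femur is the tissue in the sample labels and the right tibia that in the methods. No sham rats were fed BB, so a response to BB could be measured only after ovariectomy.

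Superoxide dismutases turn superoxide into hydrogen peroxide, which catalase, the glutathione peroxidases and the peroxiredoxins then reduce. Glutathione peroxidases, GSTs and glutaredoxins draw on glutathione, a tripeptide made by glutamate-cysteine ligase (Gclc and Gclm) and glutathione synthetase (Gss) and returned to its reduced form by glutathione reductase (Gsr), whereas most peroxiredoxins draw on thioredoxin and its reductases. The transcription factor Nrf2 (gene Nfe2l2), held in check by Keap1, raises many of these genes under oxidative or electrophilic stress, and plant polyphenols are widely studied as its activators. In bone, reactive oxygen species favour osteoclast formation, and marrow holds red cell precursors, which are rich in catalase and peroxiredoxin 2.

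Nrf2 acts through the antioxidant response element, whose core TGACNNNGC was searched for on both strands in the 250 bases before each gene's start in RefSeq (GRCr8). Of 58 members with a promoter in that table, 10 (17.2%) held it, as did 10.1% of all 33469 promoters. The match was in 4 of 17 promoters of members higher in OVX than in sham, in 3 of 24 of members lower in OVX and in 3 of 17 of members that passed in neither direction. Among the classical targets Nqo1, Hmox1, Gclc, Gclm, Srxn1 and Txnrd1 a match was found for Gclm only. Elements further than 250 bases from the start were not searched for, so the lack of a match does not tell whether a gene is a target. A match is a string of letters and not a measured site. The windows around 4 matches are shown in the direction of the gene with the core in capitals, for Gclm, which had the largest difference between OVX and sham among the 6 classical Nrf2 targets followed here, and for a mitochondrial, an endoplasmic reticulum and a cytosolic enzyme. In Gclm and Sod2 the core lies on the opposite strand and reads in its reversed form.
Gclm (chr2:213031938-213031996, plus strand, 172 bases before the start): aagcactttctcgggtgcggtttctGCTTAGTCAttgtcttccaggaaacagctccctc
Sod2 (chr1:50050170-50050228, minus strand, 35 bases before the start): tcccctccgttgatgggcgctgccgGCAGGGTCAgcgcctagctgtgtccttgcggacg
Txndc5 (chr17:26495420-26495466, plus strand, 22 bases before the start): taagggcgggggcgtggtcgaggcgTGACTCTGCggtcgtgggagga
Gstp1 (chr1:210769733-210769791, minus strand, 61 bases before the start): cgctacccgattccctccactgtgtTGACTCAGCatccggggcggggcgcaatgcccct
Gclm and Sod2 were lower in OVX than in sham, Txndc5 was higher, and Gstp1 did not pass the test. The core TGACGTGG of an element of the unfolded protein response was in 0 of the 58 promoters, against 0.52% of all promoters. It was searched for in the same way because several members are proteins of the endoplasmic reticulum. The endoplasmic reticulum stress response element was in 0 of the 58 as well, against 0.0657% of all promoters. Both are so rare that 0 of 58 says nothing about the members.

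Values are log2 intensities centred by the authors on each probe set's median over the 12 arrays, so they compare arrays and not genes, and a value near 0 says nothing of how abundant a transcript is. A gene is the mean of its probe sets. Differences were tested with limma over all 14217 genes with Benjamini-Hochberg adjustment at 0.05, and each is given with its standard error (SE). An exact permutation test of 3 pools against 3 could not go below p = 0.1. No 2 arrays held identical values.

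The first comparison asked how these genes differed between OVX and sham bone on the control diet. In OVX bone 20 members were higher than in sham bone, 28 were lower and 20 did not pass. That is 70.6% called, where 58.9% of all genes were called, so the share of members is to be read against a difference that ran through most of the array. Members higher in OVX made up 29.4%, against 30.3% of all genes, and members lower made up 41.2%, against 28.6%. Counts by family, compartment and list below are to be read against these shares of all genes. The median difference was −0.10 over the members and 0.0047 over all genes. At least 2-fold differences were found in 5 members that were higher (7.35%, against 8.25% of all genes) and 15 that were lower (22.1%, against 8.38%). The values of the OVX pools and the sham pools did not overlap in 51 members (75.0%, against 61.2% of all genes), and 50 had an unadjusted p under 0.05 (73.5%, against 62.1%). Quantile normalizing the arrays again left 23 of the 48 calls, with no member changing direction. Which calls were lost is not marked gene by gene below, except for Gsr and Hmox1.

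**Figure D1:**
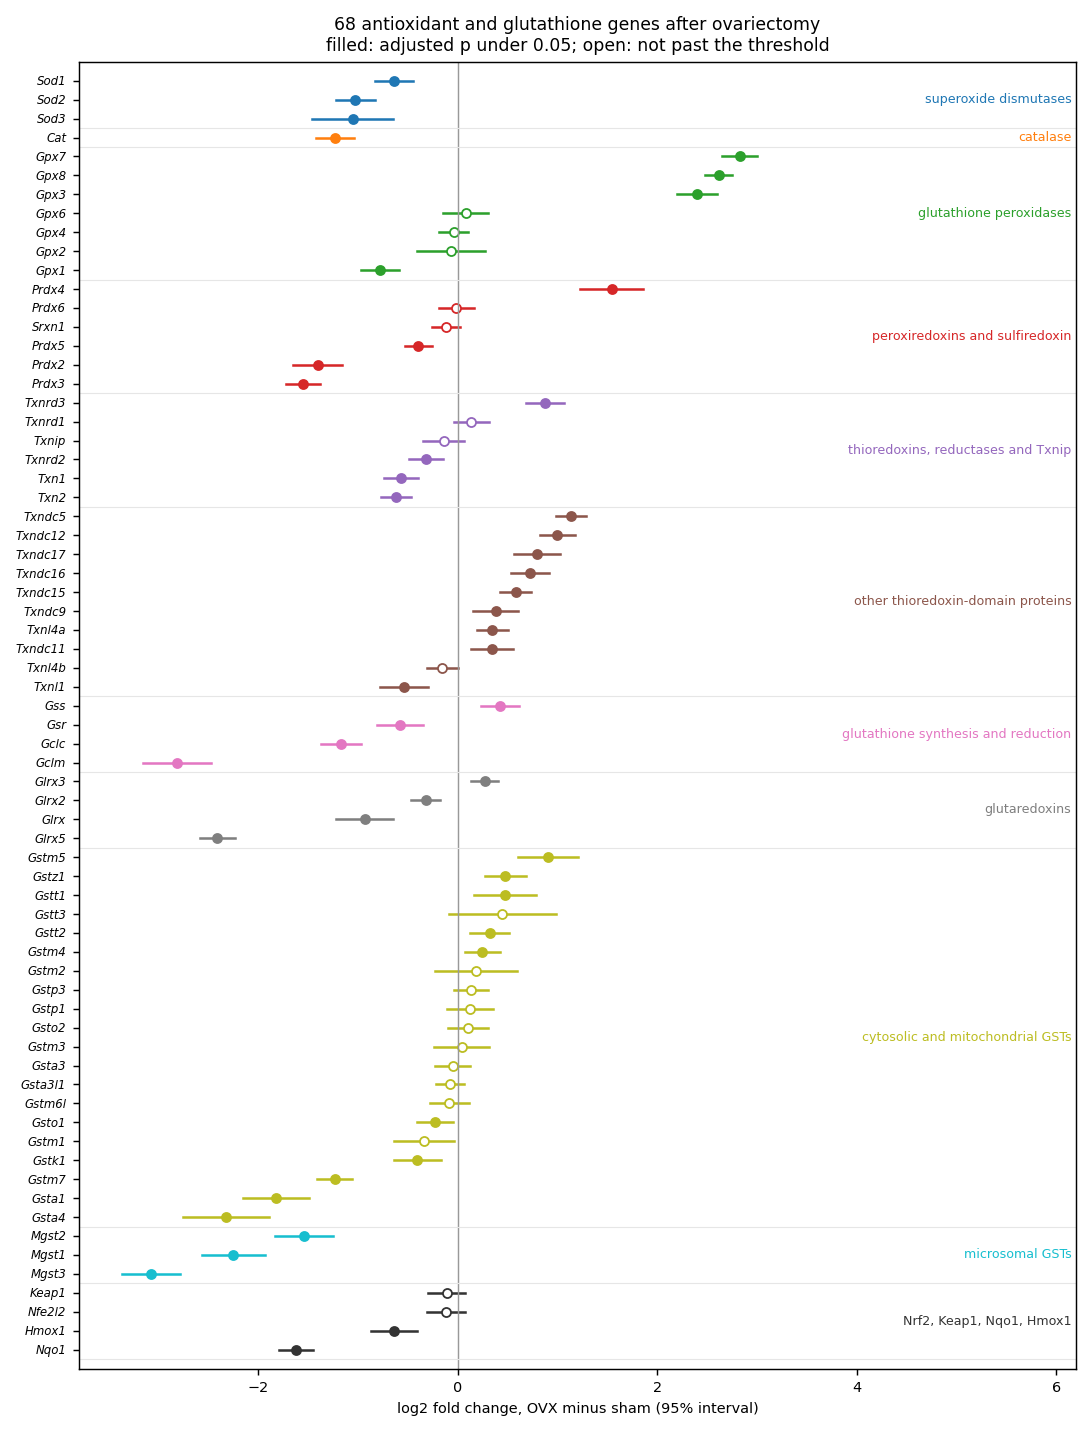
Difference between OVX and sham in log2 for each of the 68 genes (x axis), grouped by family down the page, with 95% intervals from limma, n = 3 pools per group. Filled circles are genes with an adjusted p under 0.05 (20 higher, 28 lower) and open circles the 20 others.

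The members furthest above sham were peroxidases of the secretory pathway. Gpx7, a peroxidase resident in the endoplasmic reticulum (ER), lay at 0.022, 0.0074 and −0.0078 in the OVX pools, against −2.87, −2.69 and −2.88 in the sham pools. It was 7.07-fold higher in OVX (log2 difference 2.82, SE 0.079, adjusted p = 3.06e-11). The 6 arrays of BB-fed OVX rats, between −0.10 and 0.18, were all far above sham as well.

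Gpx8, a membrane-bound peroxidase of the ER, had 0.0073, 0.018 and −0.0073 in OVX, against −2.54, −2.63 and −2.66 in sham. It was 6.12-fold higher in OVX (SE 0.062 on the log2 scale, adjusted p = 9.47e-12), the smallest adjusted p of any member in this comparison. Gpx3, the peroxidase secreted into plasma, had 0.031, −0.0026 and 0.20 in OVX, against −2.18, −2.45 and −2.33 in sham. Its difference was 5.27-fold (SE 0.092, adjusted p = 3.00e-10), and no OVX pool came near a sham pool in either gene.

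Prdx4, the peroxiredoxin of the ER, was the fourth, with 0.016, 0.11 and −0.0011 in OVX, against −1.16, −1.40 and −1.94 in sham. The sham pools spread over a wider range than the OVX pools, and the groups did not overlap. The difference was 2.91-fold (SE 0.15, adjusted p = 9.63e-07).

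The members furthest below sham were drawn from 4 families. Mgst3, a membrane-bound glutathione transferase and peroxidase, had −0.32, 0.18 and −0.028 in OVX, against 3.15, 3.20 and 2.72 in sham, and was 8.45-fold lower in OVX (log2 difference −3.08, SE 0.13, adjusted p = 7.80e-10). Gclm, the modifier subunit that makes glutamate-cysteine ligase more efficient, had −0.41, 0.32 and −0.099 in OVX, against 3.01, 2.70 and 2.55 in sham, and was 7.04-fold lower in OVX (SE 0.16, adjusted p = 7.42e-09). In both genes all OVX pools were more than 2 log2 units below the lowest sham pool.

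Glrx5, a mitochondrial glutaredoxin that passes on iron-sulfur clusters and is needed for heme synthesis in zebrafish red cells, had −0.037, 0.10 and −0.054 in OVX, against 2.47, 2.48 and 2.29 in sham. It was 5.32-fold lower in OVX (SE 0.080, adjusted p = 8.72e-11). Gsta4, the GST that conjugates the lipid peroxidation product 4-hydroxynonenal, had −0.62, 0.025 and 0.27 in OVX, against 2.27, 2.51 and 1.88 in sham. The OVX pools of Gsta4 spread over almost a full log2 unit without reaching sham, and it was 5.01-fold lower in OVX (SE 0.20, adjusted p = 3.75e-07).

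**Figure D2:**
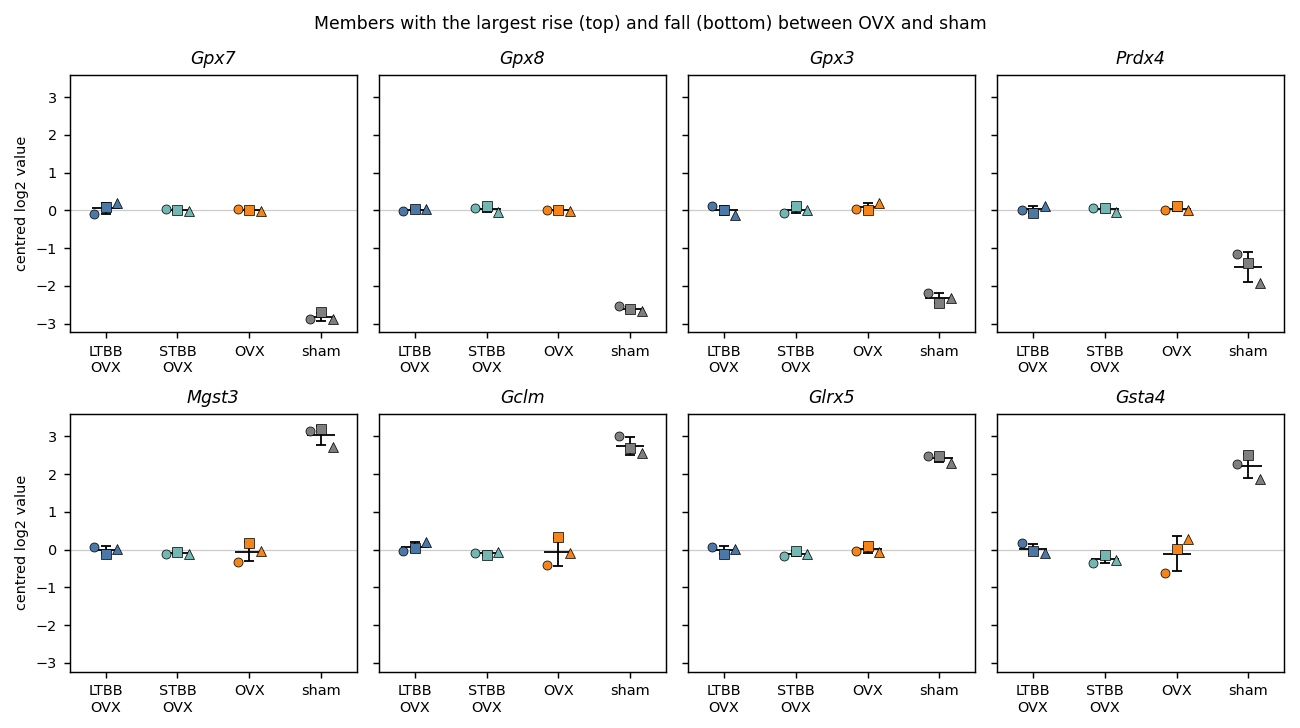
Centred log2 value in each array of the 4 members furthest above and the 4 furthest below sham in OVX bone, with circles, squares and triangles for pools 1, 2 and 3 and bars for mean ± SD. The 9 arrays of ovariectomized rats cluster near 0 whatever the diet, and the 3 sham arrays stand apart below (Gpx7, Gpx8, Gpx3, Prdx4) or above (Mgst3, Gclm, Glrx5, Gsta4).

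All 3 superoxide dismutases were lower in OVX bone. The mitochondrial Sod2 averaged 0.022 ± 0.17 in OVX and 1.05 ± 0.098 in sham (SD, n = 3 each) and was 2.04-fold lower in OVX. Sod3, the extracellular form, was 2.08-fold lower, with the widest SE of the family (0.19), and the cytosolic Sod1 was 1.56-fold lower. Catalase, the peroxisomal enzyme that splits hydrogen peroxide, had −0.26, 0.058 and −0.097 in OVX, against 1.25, 1.09 and 1.06 in sham, and was 2.35-fold lower in OVX (SE 0.087 on the log2 scale, adjusted p = 5.71e-08).

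Of 7 glutathione peroxidases, 3 were higher (Gpx7, Gpx8 and Gpx3), Gpx1 was lower and 3 did not pass. Gpx1, the cytosolic selenoenzyme, was 1.72-fold lower in OVX. Gpx4, which reduces lipid hydroperoxides in membranes, differed by −0.041, Gpx6 by 0.077 and Gpx2, the gastrointestinal form, by −0.070. The 2 probe sets of Gpx4 disagreed in sign, at −0.11 and 0.028. Differences in this family thus ran from −0.78 to 2.82.

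Among peroxiredoxins the ER form Prdx4 was higher, and Prdx2, Prdx3 and Prdx5 were lower. Prdx3, the mitochondrial form, was 2.93-fold lower in OVX (log2 difference −1.55, SE 0.077). Prdx2, a cytosolic form abundant in red cells, was 2.65-fold lower, and Prdx5 was 1.32-fold lower. Prdx6, which uses glutathione in place of thioredoxin, differed by −0.014 and did not pass. Sulfiredoxin (Srxn1), which rescues overoxidized peroxiredoxins, differed by −0.12, and its 3 probe sets ranged from −0.66 to 0.23.

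In the thioredoxin system both thioredoxins were lower in OVX, Txn1 of the cytosol by −0.57 and Txn2 of mitochondria by −0.62 on the log2 scale. The reductases went different ways: Txnrd3, best known from testis, was 1.83-fold higher, the mitochondrial Txnrd2 was 1.25-fold lower, and the cytosolic Txnrd1 (0.14) did not pass. Txnip, which binds and inhibits thioredoxin, differed by −0.14 and did not pass.

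Of the 10 other proteins with a thioredoxin domain, 8 were higher in OVX, Txnl1 was lower and Txnl4b did not pass. Txndc5, an ER disulfide isomerase, had −0.0069, −0.031 and 0.031 in OVX, against −1.06, −1.15 and −1.20 in sham, and was 2.20-fold higher in OVX. Txndc12, another ER thiol oxidoreductase, was higher by 0.998 on the log2 scale, the cytosolic Txndc17 was 1.73-fold higher, the ER protein Txndc16 1.65-fold and Txndc15 1.49-fold. Txndc9 (0.38), Txnl4a (0.34) and Txndc11 (0.34) were higher by less. Txnl1, a thioredoxin-like protein associated with the proteasome, was 1.45-fold lower over 4 probe sets that ranged from −1.57 to −0.027.

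Members of the ER went both ways between OVX and sham. The grouping by compartment was made after the values had been seen, from textbook locations, and carries no test. Of 11 members of the ER, 7 were called higher in OVX (Gpx7, Gpx8, Prdx4, Txndc5, Txndc11, Txndc12 and Txndc16). The other 4 were called lower (Mgst1, Mgst2, Mgst3 and Hmox1), and differences ranged from −3.08 to 2.82. The 6 members taken as mainly mitochondrial (Sod2, Prdx3, Txn2, Txnrd2, Glrx2 and Glrx5) were called lower, from −2.41 to −0.32 with a median of −0.82. Members found in several compartments, such as Prdx5 (−0.40) and Gpx4 (−0.041), were not counted with them.

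The enzymes that make and recycle glutathione did not move as a unit. Gclc, the catalytic subunit of glutamate-cysteine ligase, had −0.048, 0.0061 and −0.0042 in OVX, against 1.12, 1.39 and 0.96 in sham, and was 2.25-fold lower in OVX (SE 0.091 on the log2 scale, adjusted p = 1.46e-07). Gsr was also lower, by −0.58 (SE 0.11, adjusted p = 0.00044), whereas Gss was 1.34-fold higher (SE 0.087, adjusted p = 0.000893). The call for Gsr was among those lost on quantile normalization, which left 23 of all 48. Glutaredoxins, which use glutathione to reduce disulfides, were lower for Glrx5, Glrx (1.91-fold) and Glrx2 (1.25-fold). Of the 2 probe sets of Glrx2, 1 did not pass when tested alone (−0.137, adjusted p = 0.150 in limma). Glrx3, which carries iron-sulfur clusters in the cytosol, was higher by 0.27 on the log2 scale.

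GSTs couple glutathione to electrophiles. All 3 microsomal forms were lower in OVX, Mgst3 most, Mgst1 by 4.76-fold and Mgst2, which can also make leukotriene C4, by 2.92-fold. Of 20 cytosolic and mitochondrial forms, 5 were lower, 5 were higher and 10 did not pass. Those lower were Gsta4, Gsta1 (3.55-fold), Gstm7 (2.36-fold), Gstk1 (1.32-fold) and Gsto1 (1.17-fold). Those higher were Gstm5 (1.87-fold), Gstz1 (1.39-fold), an enzyme of tyrosine breakdown, Gstt1 (1.39-fold), Gstt2 (1.25-fold) and Gstm4 (1.18-fold). Of the 2 probe sets of Gstt2, 1 did not pass when tested alone (0.27, adjusted p = 0.136 in limma). Gstm5 had −0.22, 0.12 and 0.11 in OVX, against −0.67, −0.83 and −1.20 in sham, with no overlap. Members of the alpha, mu and theta classes are close copies of each other, and whether their probe sets tell them apart was not tested, so that differences within a class are uncertain. Gstp1, the pi-class form widespread outside the liver, differed by 0.12 (SE 0.11, adjusted p = 0.358) and did not pass.

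Within the Nrf2 axis both regulators were close to sham, and 4 of 6 classical targets were lower in OVX, as were 28.6% of all genes. Nfe2l2 had −0.16, 0.12 and −0.13 in OVX, against 0.18, 0.10 and −0.10 in sham, and Keap1 had 0.023, −0.083 and −0.031 in OVX, against −0.14, 0.16 and 0.22 in sham. The pools of OVX and sham overlapped in both genes, and the differences of −0.12 (SE 0.088, adjusted p = 0.284) and −0.11 (SE 0.086, adjusted p = 0.281) did not pass. Of the 2 probe sets of Keap1, 1 passed when tested alone (−0.197, adjusted p = 0.035 in limma). Nqo1, a quinone reductase and a standard readout of Nrf2, had 0.022, −0.066 and −0.066 in OVX, against 1.66, 1.57 and 1.52 in sham. It was 3.08-fold lower in OVX (log2 difference −1.62, SE 0.079, adjusted p = 1.88e-09), as were Gclm and Gclc, with every OVX pool below every sham pool.

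Hmox1, which breaks down heme, had 0.013, 0.065 and −0.11 in OVX, against 0.85, 0.67 and 0.37 in sham, and was 1.56-fold lower in OVX (SE 0.11, adjusted p = 0.00016), a call lost on quantile normalization. Srxn1 had 0.070, −0.024 and −0.027 in OVX, against 0.083, 0.14 and 0.16 in sham. Txnrd1 had 0.083, 0.0079 and −0.031 in OVX, against −0.19, −0.21 and 0.057 in sham. Both are Nrf2 targets too, and neither passed (adjusted p = 0.133 for Srxn1 and 0.166 for Txnrd1). Of the 3 probe sets of Srxn1, 1 passed when tested alone (−0.664).

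**Figure D3:**
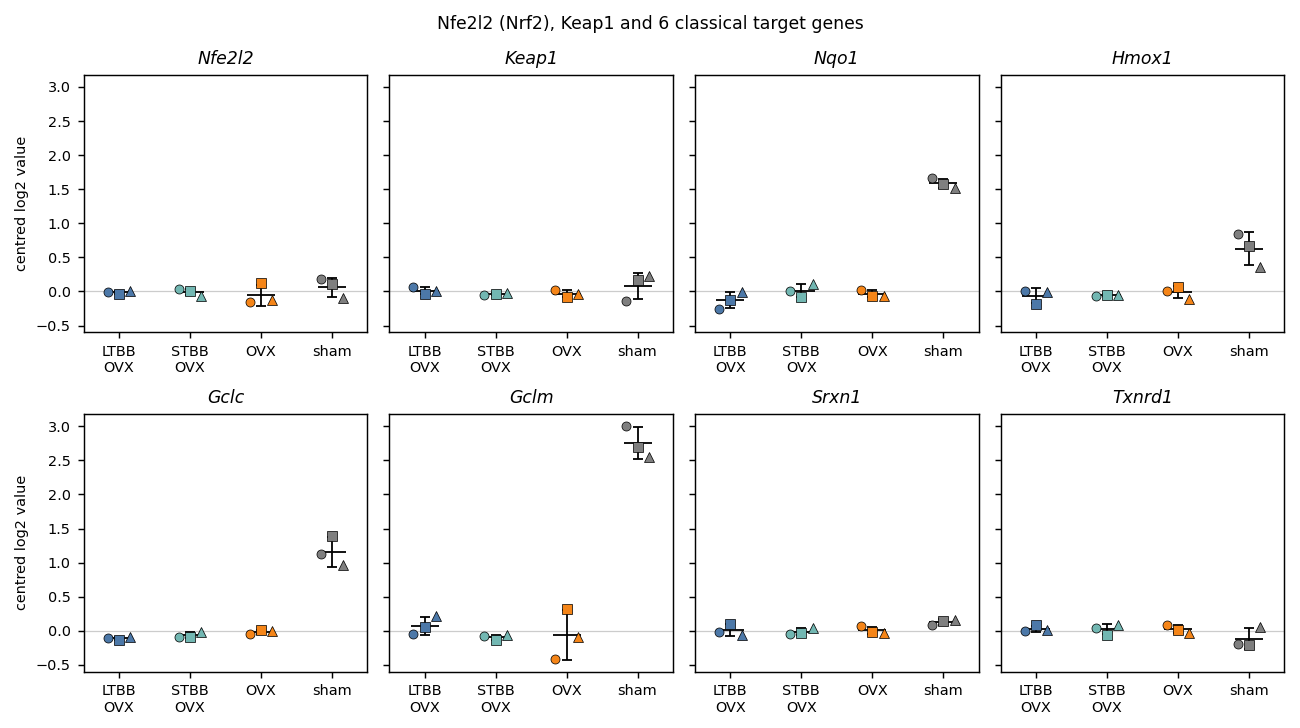
Centred log2 value in each array of Nfe2l2 (Nrf2), Keap1 and 6 classical Nrf2 target genes, with circles, squares and triangles for pools 1, 2 and 3 and bars for mean ± SD. The sham arrays of Nqo1, Hmox1, Gclc and Gclm lie above all others. The sham arrays of Nfe2l2 overlap with the OVX arrays, and those of Keap1 lie on both sides of the 9 arrays of ovariectomized rats (−0.14 below them, 0.16 and 0.22 above).

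Of 33 further Nrf2 targets and partners, 28 were measured, of which 9 were higher in OVX and 17 were lower, with a median of −0.46. The largest differences were in Nfe2 (−3.42), a relative of Nrf2 that drives megakaryocyte and red cell genes, Blvrb (−2.08), the biliverdin reductase abundant in red cells, and Pgd (−1.60), an enzyme of the pentose phosphate pathway that supplies NADPH. On the other side, the 3 carriers Abcc1 (0.59), Abcc2 (0.50) and Abcc4 (0.30), which export conjugates, and the cystine carrier subunit Slc7a11 (0.40) were higher in OVX. These 4 were named after their values had been seen.

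Markers of several marrow and bone cell types moved between OVX and sham beside the members. Of 13 erythroid markers measured, 12 were lower in OVX (median −2.73), and the mean of the list lay between −0.20 and 0.026 in OVX pools, against 1.96 to 2.26 in sham pools. All 8 neutrophil markers (median −2.52), 5 of 6 megakaryocyte markers (median −2.35) and 19 of 20 skeletal muscle markers (median −5.93) were also lower. In the other direction, all 12 osteoblast markers (median 2.19), 9 of 10 osteoclast markers (median 1.06), 13 of 14 chondrocyte markers (median 4.39) and 10 of 11 endothelial markers (median 0.84) were higher in OVX. Macrophage markers were higher in 6 of 9 and lower in 1. In B cell markers 4 of 6 were lower, in adipocyte markers 5 of 10 were lower and 2 higher, and in T and NK cell markers 3 of 13 went each way.

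Among the markers the largest differences in each direction were 8.68 in the chondrocyte marker Col10a1 and −8.07 in the muscle marker Myh2. Any other difference between the sham arrays and the rest, such as in the tissue taken or its handling, cannot be told apart from the operation. In bulk RNA of this kind, fewer cells of a type and less RNA per cell cannot be told apart. The part of the cell mix in the members' differences cannot be told apart from the operation either, since the erythroid mean did not overlap between OVX and sham. With that mean in the limma fit as a covariate, 1 of the 48 calls remained past the threshold and 33 of 48 members kept their direction. Gclc, Gsta4 and Hmox1 were among those that turned, to 0.26, 2.30 and 0.85. These turned values did not pass (adjusted p = 0.876, 0.271 and 0.631 in limma). With the skeletal muscle mean as a covariate 22 members and 3331 of all genes passed, and 46 of the 48 kept their direction, all but Gstk1 and Gsto1. That mean did not overlap between OVX and sham either (−2.76 to −1.18 against 3.17 to 4.10). This fit therefore cannot tell muscle content apart from the operation.

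**Figure D4:**
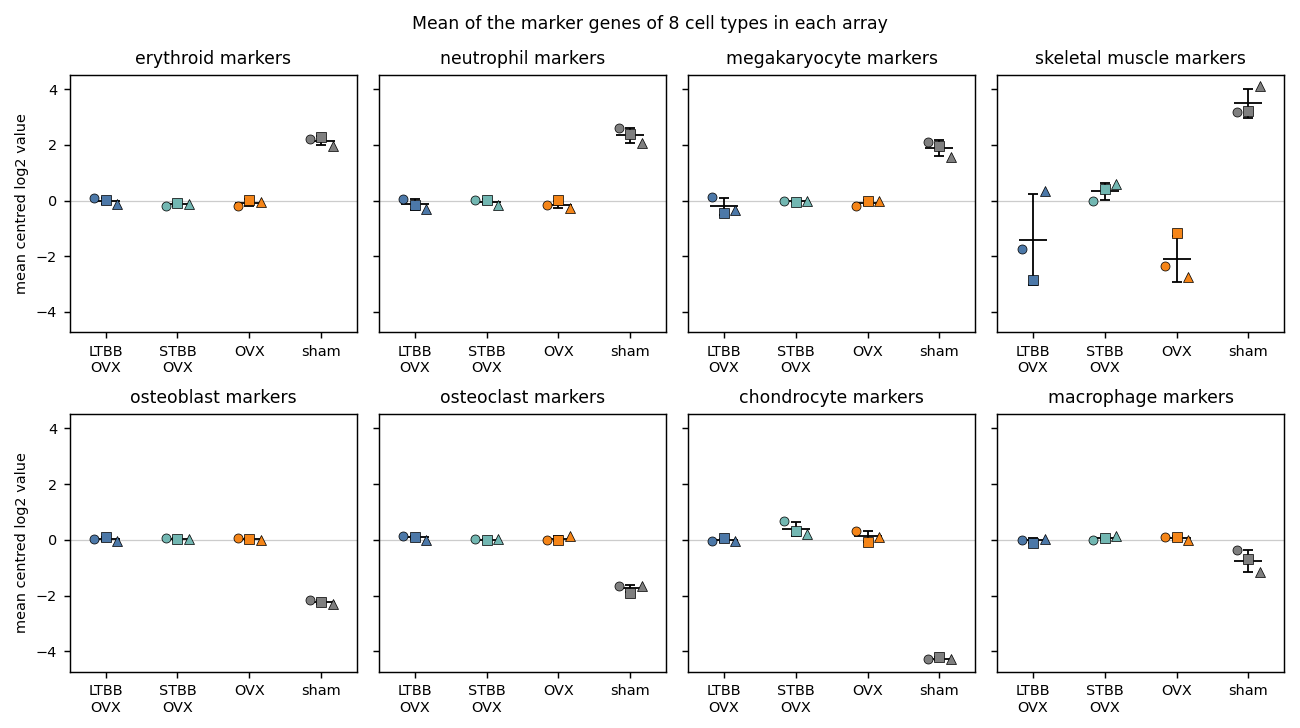
Mean centred log2 value of the measured marker genes of 8 cell types in each array, with circles, squares and triangles for pools 1, 2 and 3 and bars for mean ± SD. Erythroid, neutrophil, megakaryocyte and muscle markers were highest in sham, bone and cartilage markers lowest in sham, and the muscle mean spread most widely of the 8 among ovariectomized rats, from −2.85 to 0.58.

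Members also differed from sham in both groups of BB-fed rats. In LTBB OVX against sham 20 members were higher and 30 lower, and the counts in STBB OVX against sham were the same (73.5% called in each, where 58.3% of all genes were called). Of all genes 29.2% were higher and 29.1% lower in LTBB OVX, and 29.3% higher and 29.0% lower in STBB OVX. These comparisons share the sham arrays with OVX against sham and do not repeat it. All 3 comparisons called 20 members higher and 27 lower, 16 were called in none, and 5 in some (Gsta3, Gsta3l1, Gstm1, Gsto1 and Txnl4b). The same count was not made over all genes, so these numbers have no share to be read against. All 9 arrays of ovariectomized rats lay above all sham arrays in 18 members and below them in 27 (66.2% of members, against 53.2% of all genes).

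The next comparisons asked whether the BB diets, a source of polyphenols, changed these genes after ovariectomy. In LTBB OVX against OVX limma called 0 of 68 members, and in STBB OVX against OVX also 0, where 0 of 14217 genes were called in each. At an unadjusted p under 0.05 there was 1 member in LTBB OVX (1.47%, against 2.31% of all genes) and 0 in STBB OVX (against 2.89%). The median difference was 0.0024 over the members in LTBB OVX and −0.014 in STBB OVX, with ranges of −0.23 to 0.28 and of −0.22 to 0.21. With the 6 arrays of both diets set against OVX, 0 members were called and 0 had an unadjusted p under 0.05 (against 2.41% of all genes), with a range of −0.23 to 0.18.

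The intervals show how large a diet difference the array values allow. Which members are too dim to show a change is not known, since levels are lost and no filter on dim probe sets was applied. The 95% interval stayed within 1.5-fold either way for 67 of 68 members in LTBB OVX, all but Gstt3 (−0.66 to 0.41), and for 66 in STBB OVX, all but Gsta4 (−0.59 to 0.28) and Sod3 (−0.21 to 0.61). The same held for 97.4% and 97.1% of all genes. For the 6 BB arrays against OVX it held for all 68 members (98.4% of all genes). The median member had an interval of 0.19 log2 units to either side.

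**Figure D5:**
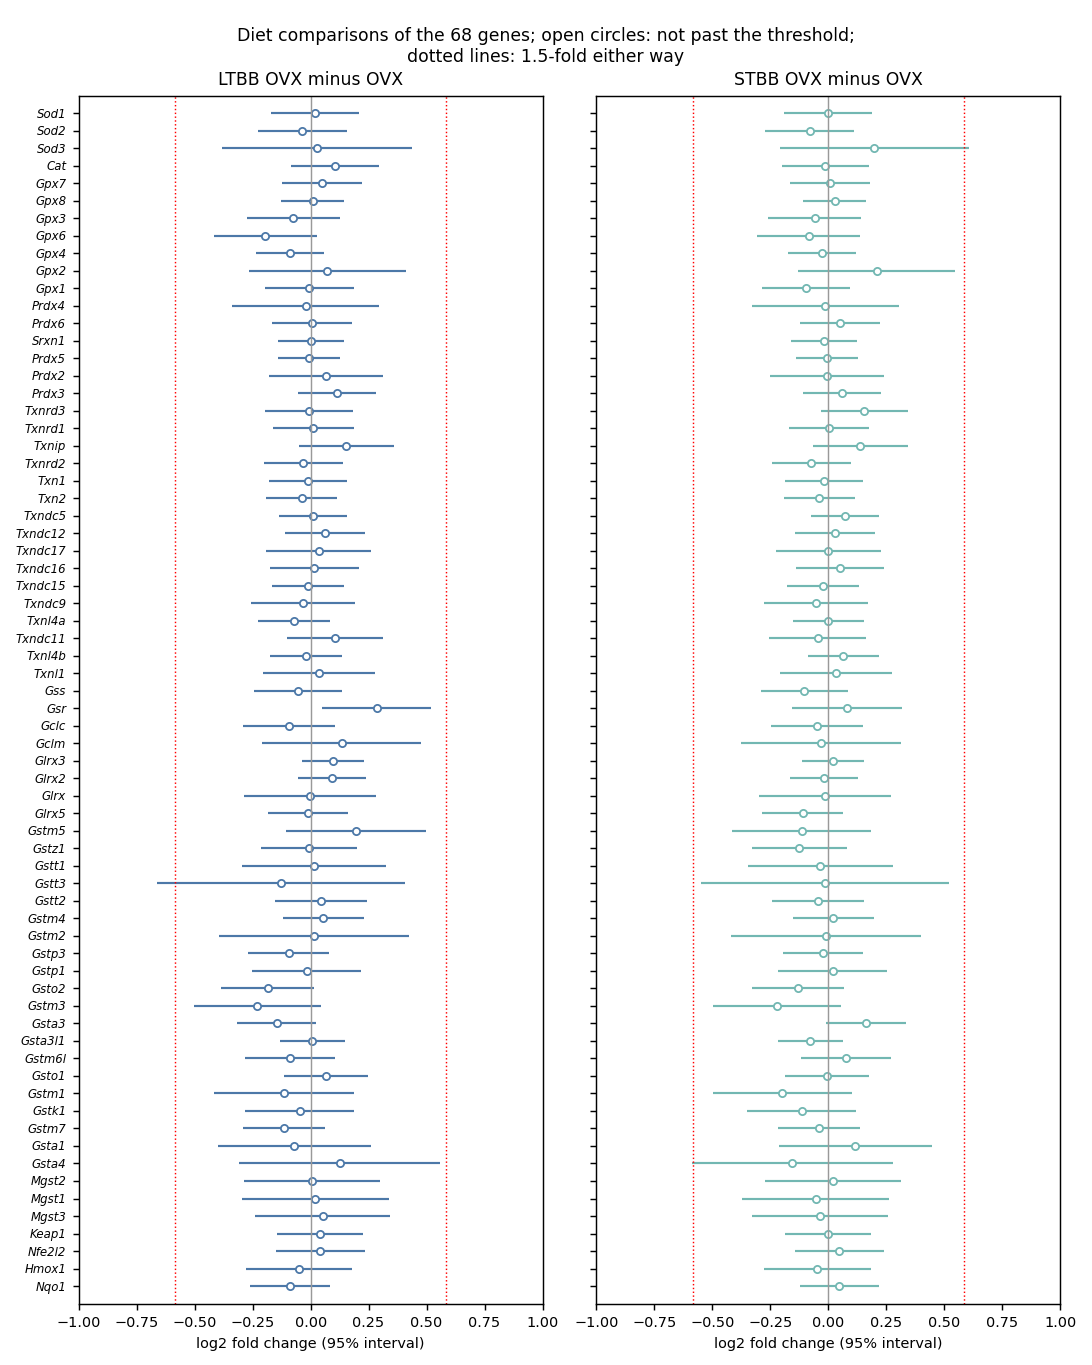
Difference in log2 from OVX, with 95% intervals from limma, of each of the 68 genes in LTBB OVX (left) and STBB OVX (right), n = 3 pools per group. Open circles are genes that did not pass, which all 68 are in both panels, and the dotted lines mark 1.5-fold, outside which only 1 interval on the left and 2 on the right extend.

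Gsr had the largest difference in LTBB OVX, with −0.0081, 0.10 and 0.0093 in LTBB OVX, against −0.35, −0.26 and −0.14 in OVX. The pools did not overlap, the difference was 0.28 (SE 0.11, 95% interval 0.049 to 0.52), and with an unadjusted p of 0.0218 and an adjusted p of 1.0 in limma it did not pass. In STBB OVX the pools of Gsr, at 0.0081, −0.46 and −0.061, spread across those of OVX. All 6 BB arrays stayed below the lowest sham pool (0.24).

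Gstm3 had −0.18, 0.023 and −0.082 in LTBB OVX and −0.067, 0.11 and −0.25 in STBB OVX, against 0.27, −0.023 and 0.21 in OVX. The groups overlapped, and the differences from OVX were −0.23 and −0.22. Gstm5 had 0.15, 0.19 and 0.26 in LTBB OVX, against −0.22, 0.12 and 0.11 in OVX, and all LTBB OVX pools were higher than all OVX pools by a difference of 0.20 that did not pass.

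Gpx2 had 0.026, 0.27 and −0.090 in STBB OVX, against −0.0078, −0.36 and −0.050 in OVX, which overlapped. Gstm1 had −0.21, −0.21 and −0.13 in STBB OVX, against 0.042, −0.0074 and 0.0074 in OVX, lower in every pool by a difference of −0.20. Gsto2, an omega-class GST with dehydroascorbate reductase activity, had 0.0048, −0.12 and −0.019 in LTBB OVX and 0.019, −0.0048 and 0.017 in STBB OVX, against 0.20, −0.079 and 0.30 in OVX. Here the 3 OVX pools spread more widely than the 6 BB pools, and neither Gpx2, Gstm1 nor Gsto2 passed.

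Pools of LTBB OVX did not overlap with those of OVX in 4 members (Gsr and Gstm5 higher, Gclc and Gstm7 lower), which is 5.88%, against 8.7% of all genes. In STBB OVX it was again 4 members (Txndc5 and Txnrd3 higher, Gpx4 and Gstm1 lower), 5.88%, against 9.38% of all genes. Both shares were below those of all genes. The 2 probe sets of Gpx4 disagreed in sign in STBB OVX against OVX (−0.097 and 0.041). Of the 28 further Nrf2 targets and partners, 0 were called in either diet, with medians of −0.0076 in LTBB OVX and 0.012 in STBB OVX and ranges of −0.26 to 0.13 in LTBB OVX and of −0.25 to 0.21 in STBB OVX.

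The Nrf2 axis itself stayed close to OVX under both diets. Nqo1 had −0.25, −0.12 and −0.0057 in LTBB OVX and 0.0057, −0.085 and 0.11 in STBB OVX, beside the OVX values given above. Hmox1 had 0.0041, −0.18 and −0.0041 in LTBB OVX and −0.071, −0.051 and −0.048 in STBB OVX. Gclm had −0.050, 0.050 and 0.21 in LTBB OVX and −0.083, −0.14 and −0.067 in STBB OVX. All of these lay below the lowest sham pool of their gene.

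Gclc had −0.10, −0.13 and −0.093 in LTBB OVX and −0.089, −0.096 and −0.013 in STBB OVX. Nfe2l2 kept within −0.060 and 0.029 in the 6 BB arrays, Keap1 within −0.049 and 0.062, Srxn1 within −0.062 and 0.10, and Txnrd1 within −0.062 and 0.088. None of the 8 genes differed from OVX at an unadjusted p under 0.05 in either diet.

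Between the diets, STBB OVX against LTBB OVX, limma called 0 of 68 members and 0 of 14217 genes, and 2 members had an unadjusted p under 0.05 (2.94%, against 3.4% of all genes). Gsta3, an alpha-class GST, had 0.013, 0.11 and 0.24 in STBB OVX, against −0.27, −0.046 and −0.25 in LTBB OVX, a difference of 0.31 without overlap (SE 0.079, unadjusted p = 0.00195, adjusted p = 1.0). Gstm5 was lower in every STBB OVX pool (−0.33, −0.029 and 0.029) than in any LTBB OVX pool, by −0.31 (unadjusted p = 0.0436, adjusted p = 1.0). Pools did not overlap in 10 members (14.7%, against 10.9% of all genes), and the intervals of 65 members stayed within 1.5-fold, as did those of 96.5% of all genes. The skeletal muscle mean, by contrast, lay between −0.023 and 0.58 in STBB OVX and between −2.85 and 0.36 in LTBB OVX. In OVX it lay between −2.76 and −1.18. The chondrocyte mean lay between 0.19 and 0.66 in STBB OVX, between −0.06 and 0.051 in LTBB OVX and between −0.064 and 0.31 in OVX. With the muscle mean in the fit as a covariate no member passed. That fit does not measure the part of muscle in the members' values, and the part of cartilage was not tested.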

How the data were processed

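Right tibia (methods) or femur (labels) RNA was measured on 12 arrays, 3 pools in each of 4 groups. The authors deposited log2 values, which per the methods came from robust multiarray analysis and were then normalized per chip and per gene in GeneSpring. GCOS and RMA stand in the submitters' processing notes without a version. Each probe set has a median of 0, so levels are lost, and the largest range within a probe set was 9.79.

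Of 31099 probe sets 57 controls were left out, with no filter on dim ones. GEO's platform annotation gave 1 symbol to 20826 probe sets, several to 436 and none to 9780, and gene IDs matched to RefSeq (GRCr8) gave current symbols for 20758. Members with several probe sets (9 genes) were averaged. Both Prdx1 and the pair Gsta2 and Gsta5 were matched only by probe sets with several symbols (2 left out) and are not analysed here. The table had 0 columns that belong to no sample.

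Genes were fitted with limma 3.58.1 in R 4.3.3 as 4 group means over the 12 arrays, 7 comparisons, adjusted over all genes, and the fit was tested on simulated data. Pool numbers did not pair the groups (correlations of the deviations of same-numbered arrays from −0.38 to 0.23, median 0.030). Members, marker and pathway lists were chosen with earlier results of these data known. Values in every array are given for the 4 largest rises and 4 largest falls in OVX, the 3 largest diet differences, and the 8 genes of the Nrf2 axis. Those of Cat, Txndc5 and Gsta3, and the group means of Sod2, were added after their values had been seen. Of each marker or pathway list up to 3 genes with the largest difference were to be named. The number of arrays limits the precision. Alternatives were leave-one-out fits, re-normalization, array weights, pairwise fits, a replicate block, thresholds, single probe sets and marker covariates. Plots used matplotlib 3.10.9 (Python 3.11.15).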

Additional observations from a re-analysis of the deposited data

How the results depend on the processing

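No member passed in any diet comparison under any alternative run. In OVX against sham the members called (48) ranged from 46 to 50 with each array left out, in LTBB OVX against sham (50) from 46 to 52 and in STBB OVX against sham (50) from 46 to 50. All genes called ranged from 7654 to 8320 (main 8367), from 7636 to 8303 (8290) and from 7673 to 8280 (8283). Requiring at least 1.5-fold left 30, 31 and 31 members and 4319, 4291 and 4333 genes, in the same order of comparisons, and quantile normalization 23, 26 and 27 members and 3010, 3192 and 3142 genes. The cause of the second was not tested. The erythroid mean as a covariate left 1, 2 and 1 members and 417, 423 and 316 genes. The muscle mean left 22 and 31 members and 3331 and 4017 genes in OVX and LTBB OVX against sham. Like the erythroid mean, the muscle mean did not overlap between sham and the other groups. With the erythroid mean in the fit, differences turned for Gclc (0.264, 0.128 and 0.253), Gsta4 (2.30, 2.30 and 2.28) and Hmox1 (0.851, 0.758 and 0.846). They also turned in both BB groups for Gstm1 (1.36 in LTBB OVX and 1.38 in STBB OVX) and in STBB OVX for Mgst3 (0.0313). The erythroid mean does not overlap between sham and the other groups, and none of these turned values passed (adjusted p of 0.253 or more in limma). In STBB OVX against OVX (0 genes) quantile normalization called 1 gene and a fit of the groups compared 40, and in STBB OVX against LTBB OVX (0) quantile normalization called 10. Leave-one-out fits called 0 to 8 genes in each of these, 8 without LTBB OVX pool 3 and 1 without STBB OVX pool 1, and 0 in LTBB OVX and in both diets against OVX. With the pool number as a replicate block 49 members were called in OVX against sham (20 higher) and 8196 genes, and 0 members in each diet comparison. Single calls for Keap1 and Srxn1, which did not pass as means, passed with 1 probe set each (−0.197 and −0.664). A filter on dim probe sets and another background correction were not run, since the values are centred and already corrected.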

Other observations

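Genes of glutathione metabolism outside the members were measured for 24 of 25 listed, of which 8 were higher in OVX than in sham, 4 were lower and 12 did not pass (median 0.026). The largest differences were in Chac2 (−1.83), which breaks down glutathione in the cytosol, Anpep (1.51), a surface aminopeptidase, and Ggt5 (1.13), which cleaves glutathione and its conjugates outside the cell. Among enzymes that make superoxide or peroxide, 5 of 25 measured were higher and 8 were lower (median −0.064). The 3 largest were the eosinophil peroxidase Epx (−2.98), and Cybb (−1.57) and Ncf4 (−1.55), subunits of the phagocyte NADPH oxidase. In the same comparison all 8 neutrophil markers were lower, and their part in these values was not tested.

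Selenoproteins and methionine sulfoxide reductases, with the factors that insert selenocysteine, were measured for all 23 genes listed, 8 higher and 8 lower in OVX (median 0.021). Selenom, a selenoprotein of the ER, was higher by 2.85, and the cytosolic or nuclear Msrb1 and the cytosolic Selenow were lower by −1.59 and −1.52 on the log2 scale. Named after their values had been seen, the ER selenoproteins Selenos (1.14), Selenof (0.91), Selenon (0.67) and Selenot (0.20) were higher as well, while Selenok (0.021), also of the ER, did not pass. In the diet comparisons 0 genes of these 3 lists were called. The largest difference among them was 0.40 in LTBB OVX against OVX, in a gene of glutathione metabolism.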
